A study of Mus musculus with 12 samples.

Results

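The Fc receptors described here are encoded by 6 mouse genes, Fcgr1, Fcgr3, Fcgr4, Fcgr2b, Fcer1g and Fcgrt. They were chosen by symbol and matched to 6 of the 55414 Ensembl gene IDs of the count table. All 6 passed the filter on low counts that kept 14310 genes. The lowest count of any of them in any library was 204, for Fcgr4 at 2 days post injury (dpi), so none passed on account of 1 time point alone. They were followed by RNA-seq in macrophages of the ischemic calf muscle, with 3 libraries at each of 1, 2, 4 and 7 dpi. All mice were adult C57BL6J wild type males, and in all 12 libraries the cells came from the hind limb that had undergone ligation of the femoral artery, without a library from uninjured muscle. Cells were sorted as t-CD45+CD11b+F4/80+CD64+, where t-CD45 stands for CD45 stained in the digested tissue. CD64 is the product of Fcgr1, so every sorted cell was selected for the protein of 1 of the 6 genes. How many mice went into a library is not given in the sources used here. The spread between libraries, on which each P value rests, may therefore be technical.

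Fc receptors bind the constant part of antibodies and so let a macrophage take up or respond to whatever the antibodies coat. The activating IgG receptors of the mouse, encoded by Fcgr1, Fcgr3 and Fcgr4, signal through the common chain encoded by Fcer1g, whose activation motif (ITAM) is phosphorylated by Src family kinases and recruits the kinase Syk. The receptor encoded by Fcgr2b carries an inhibitory motif (ITIM) instead and recruits the lipid phosphatase SHIP1, and the relative amount of activating and inhibitory receptors sets the threshold for a response to immune complexes. Fcgrt encodes the heavy chain of the neonatal Fc receptor, which pairs with beta-2 microglobulin and returns IgG and albumin from endosomes to the cell surface.

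The 6 genes are Fcgr1 (ENSMUSG00000015947) on chromosome 3, Fcgrt (ENSMUSG00000003420) on chromosome 7, and Fcgr2b (ENSMUSG00000026656), Fcgr3 (ENSMUSG00000059498), Fcgr4 (ENSMUSG00000059089) and Fcer1g (ENSMUSG00000058715) on chromosome 1. Fcgr2b, Fcgr3 and Fcgr4 are related in sequence, and the sources used here do not say how reads matching more than 1 gene were counted, so some reads may be shared between them. The library protocol, Smart-seq2/3, does not mark the strand. Genes annotated over Fcgr2b (Gm38204, antisense), Fcgrt (Gm45669, antisense) and Fcgr4 (Gm26110, same strand) had 19, 3 and 0 counts over all libraries, against 81478, 36305 and 13621 counts of these receptor genes.

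The 250 bases upstream of the annotated starts of Fcgr1, Fcgr3, Fcgr4 and Fcgr2b are shown. Time course does not set these genes apart from the other members. Fcgr3, Fcgr4 and Fcgr2b had their lowest mean levels at 2 dpi, as did Fcgrt, and Fcgr1 at 7 dpi, as did Fcer1g. The sequences are from RefSeq (GRCm38.p6) and were found for all 6 genes. They lie at chr3:96293970-96294219 (minus strand), chr1:171059404-171059653 (minus strand, the first of 2 listed starts), chr1:171018676-171018925 (plus strand) and chr1:170976072-170976321 (minus strand), and run 5′ to 3′ towards the start of the gene. Capitals mark matches, on either strand, to 4 motifs. These are the gamma-activated site TTCNNNGAA of interferon gamma responses, the interferon-stimulated response element bound by IRF factors (GAAA, then 2 bases of any kind, then GAAA), the core AGGAAG of Ets factors such as PU.1, and the Ets-IRF composite element (GGAA, then 1 base of any kind, then TGAAA) bound by PU.1 together with IRF8 or IRF4.
Fcgr1: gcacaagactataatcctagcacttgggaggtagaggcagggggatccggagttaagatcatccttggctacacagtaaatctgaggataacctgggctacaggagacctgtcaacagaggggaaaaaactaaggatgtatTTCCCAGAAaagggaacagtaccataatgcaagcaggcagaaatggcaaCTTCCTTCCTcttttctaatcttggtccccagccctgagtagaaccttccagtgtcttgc
Fcgr3: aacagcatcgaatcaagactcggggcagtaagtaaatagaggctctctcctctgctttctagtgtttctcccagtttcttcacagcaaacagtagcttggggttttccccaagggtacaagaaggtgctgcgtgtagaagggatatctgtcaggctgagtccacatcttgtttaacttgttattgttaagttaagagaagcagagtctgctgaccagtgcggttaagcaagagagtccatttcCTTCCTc
Fcgr4: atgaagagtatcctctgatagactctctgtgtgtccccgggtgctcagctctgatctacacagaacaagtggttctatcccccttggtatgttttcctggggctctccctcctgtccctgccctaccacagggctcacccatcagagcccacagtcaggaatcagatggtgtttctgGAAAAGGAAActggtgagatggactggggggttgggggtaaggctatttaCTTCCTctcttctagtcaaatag
Fcgr2b: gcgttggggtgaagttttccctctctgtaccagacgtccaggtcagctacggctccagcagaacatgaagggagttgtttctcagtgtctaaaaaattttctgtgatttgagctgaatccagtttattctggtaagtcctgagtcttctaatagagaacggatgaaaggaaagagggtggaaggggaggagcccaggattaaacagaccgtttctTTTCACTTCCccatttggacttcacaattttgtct
The Fcgr1 window held a gamma-activated site, beginning 109 bases before the start, and 2 overlapping Ets cores between 60 and 51 bases before it. The Fcgr4 window held the interferon-stimulated response element 73 to 64 bases and an Ets core 23 to 18 bases before the start. An Ets core ended 2 bases before the start of Fcgr3, and the Ets-IRF composite stood 35 to 26 bases before that of Fcgr2b. Fcer1g had an Ets core 44 to 39 bases before its start, and the Fcgrt window matched none of the 4. Of 32851 RefSeq windows of the same length, 7.02% held the gamma-activated site, 2.98% the interferon-stimulated response element, 29.5% the Ets core and 0.594% the composite. The Ets core and the composite share the letters GGAA, but no matches to different motifs overlapped here. The 4 motifs were chosen after a wider set had been looked at in these windows, and a match describes the letters only.

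Total counts were 19528316 to 33599472 per library. A single gene without a symbol took 14.8% to 55.7% of them and left 8992759 to 18581365 counts, so that all members except Fcgr4 rested on 852 or more counts in every library. Libraries were scaled by TMM factors of 0.652 to 1.70, highest at 7 dpi, and levels are given as CPM, counts divided by the scaled library size in a unit common to all libraries. Mitochondrial genes took 4.77% to 18.9% of the remaining counts, and 7 dpi replicate 2 had the highest share. The edgeR quasi-likelihood test compared time points over all 14310 genes with Benjamini-Hochberg adjustment (FDR). Genes with an FDR under 0.05 and an absolute log2 fold change (log2FC) above 1 are called DEGs, and every log2FC is the later over the earlier time point, given with its standard error. In these bulk libraries, fewer cells carrying a transcript and less of it per cell cannot be told apart.

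By mean CPM, 4 of the 6 genes were lowest at 2 dpi, and Fcgr1 and Fcer1g at 7 dpi. At 2 dpi against 1 dpi, 2 members were lower DEGs, Fcgr4 and Fcgr2b, and none was a higher DEG, where 3.97% of all genes tested were lower and 5.09% higher DEGs. At 4 dpi against 2 dpi, 3 were higher DEGs, Fcgr4, Fcgr2b and Fcgrt, and none was lower, where 8.02% of all genes were higher and 3.88% lower DEGs. At 7 dpi against 4 dpi the edgeR count of member DEGs was 0, as it was with DESeq2 and limma-voom, where 7.44% of all genes were higher and 5.2% lower DEGs. In that comparison 1 member, Fcgr1, had an unadjusted P under 0.05, and it also passed the FDR on its own, as 14.6% of all genes did in the lower direction. On the FDR alone, 3 members were lower at 2 against 1 dpi, where 5.6% of all genes were. At 7 dpi against 1 dpi, 1 was a lower DEG, Fcgr1, where 14% of all genes were lower and 19.7% higher DEGs. The median log2FC of the 6 was -0.67 at 2 against 1 dpi, 0.83 at 4 against 2 dpi, -0.11 at 7 against 4 dpi and -0.10 at 7 against 1 dpi, and that of all genes was 0.01, 0.04, -0.03 and 0.16. These comparisons share libraries, so that a low value at 2 dpi enters both the first and the second with opposite sign.

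**Figure D1:**
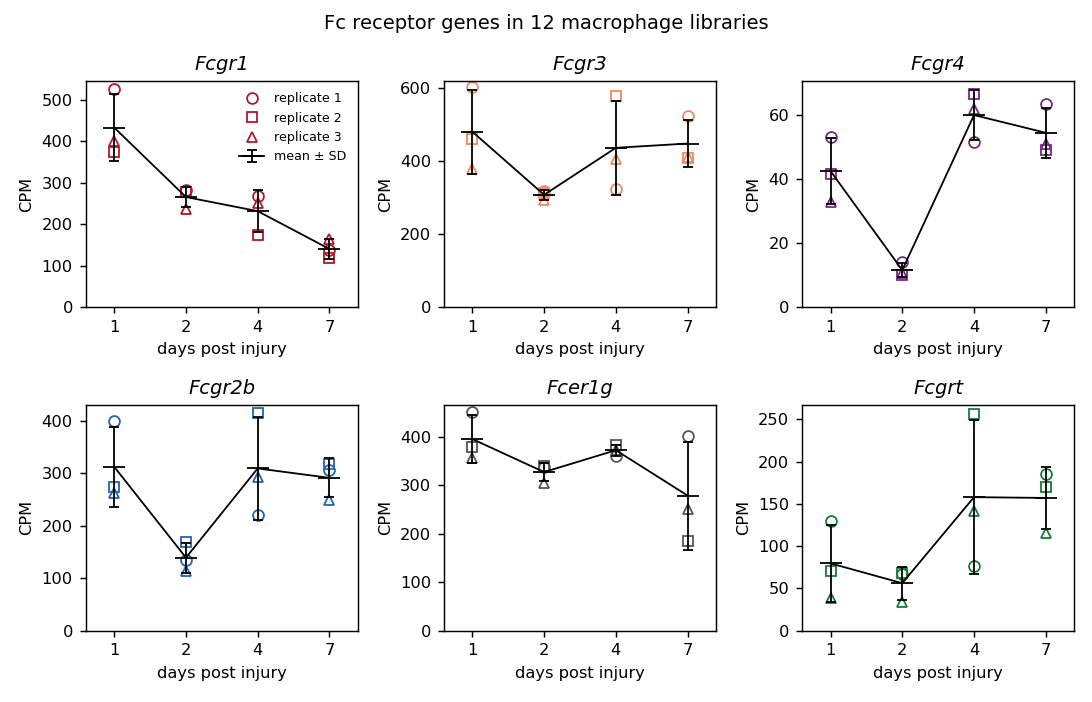
CPM (vertical axes, each starting at 0) of the 6 Fc receptor genes by days post injury, 3 libraries a day; symbols are single libraries and black bars the mean and SD. Fcgr1 was lowest at 7 dpi, at 118 to 164 CPM, Fcgr4 dropped to 10.2 to 14.0 CPM at 2 dpi, and Fcgrt had its widest spread at 4 dpi, at 76.1 to 256 CPM.

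Fcgr1, which encodes the high-affinity IgG receptor CD64, had its highest level at 1 dpi and its lowest at 7 dpi. Its 3 libraries stood at 525, 374 and 401 CPM at 1 dpi, 281, 278 and 237 CPM at 2 dpi, 269, 175 and 251 CPM at 4 dpi, and 138, 118 and 164 CPM at 7 dpi. All libraries of 1 dpi were above all later ones and all of 7 dpi below all earlier ones, while 2 and 4 dpi overlapped. Over the whole course Fcgr1 fell by 1.63 ± 0.21 on the log2 scale (140 ± 23.0 CPM at 7 dpi and 433 ± 80.8 CPM at 1 dpi, SD, n = 3 each, FDR 1.7e-05 by edgeR), a DEG also without any 1 of the 12 libraries. The steps between were smaller. The log2FC was -0.71 ± 0.21 at 2 against 1 dpi (FDR 0.0358) and -0.72 ± 0.21 at 7 against 4 dpi (FDR 0.0203), both past the FDR but not the fold threshold, and -0.20 ± 0.21 at 4 against 2 dpi (FDR 0.549, 95% interval -0.64 to 0.24). The FDR of the first step was highest without 1 dpi replicate 1 (0.168) and exceeded 0.05 without 6 of the 12 libraries, and that of the last step was highest without 7 dpi replicate 2 (0.0739) and exceeded 0.05 also without 4 dpi replicate 1 or 3.

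The genes of the other sort markers took different courses. Itgam, which encodes CD11b, averaged 180, 88.9, 43.0 and 35.8 CPM at 1, 2, 4 and 7 dpi, with a log2FC of -2.33 ± 0.19 at 7 against 1 dpi (FDR 1.71e-07). Adgre1, which encodes F4/80, averaged 285, 467, 641 and 668 CPM and was a higher DEG over the same interval (log2FC 1.23 ± 0.20, FDR 1.19e-04). Ptprc, which encodes CD45, averaged 357, 261, 464 and 560 CPM and passed the FDR (0.00677) but not the fold threshold (log2FC 0.65 ± 0.18). All 4 sort markers were thus present in every library. Itgam and Fcgr1, 2 of the 4, were lower DEGs at 7 against 1 dpi, where 14% of all genes were.

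Fcgr3 encodes CD16, an activating receptor of low affinity that binds IgG in immune complexes. Its libraries stood at 604, 461 and 378 CPM at 1 dpi, 319, 312 and 293 CPM at 2 dpi, 325, 579 and 407 CPM at 4 dpi, and 524, 409 and 412 CPM at 7 dpi. The 2 dpi libraries lay close together below all others, and the other 3 time points overlapped each other. No comparison met the DEG thresholds. The log2FC was -0.64 ± 0.23 at 2 against 1 dpi (FDR 0.0783, 95% interval -1.13 to -0.16) and 0.50 ± 0.23 at 4 against 2 dpi (FDR 0.134, 0.02 to 0.99). At 7 against 1 dpi it was -0.10 ± 0.23 (FDR 0.741, 95% interval -0.58 to 0.38).

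Fcgr4, which encodes the activating receptor CD16-2 for IgG2a/c and IgG2b, had the largest log2FC of the 6 at 2 against 1 and at 4 against 2 dpi. Its libraries stood at 53.1, 41.5 and 32.9 CPM at 1 dpi, 14.0, 10.2 and 10.5 CPM at 2 dpi, 51.5, 66.5 and 61.9 CPM at 4 dpi, and 63.3, 49.0 and 51.0 CPM at 7 dpi. The 2 dpi libraries were far below every other library, and those of the other 3 time points overlapped. Fcgr4 fell by 1.87 ± 0.21 on the log2 scale at 2 against 1 dpi (11.6 ± 2.10 CPM and 42.5 ± 10.2 CPM, SD, n = 3 each, FDR 5.94e-05), which is 3.67-fold lower. It rose by a log2FC of 2.37 ± 0.22 at 4 against 2 dpi (60.0 ± 7.71 CPM and 11.6 ± 2.10 CPM, FDR 5.42e-06), which is 5.18-fold higher. Both calls held without any 1 of the libraries, with log2FC of -2.04 to -1.67 for the first and 2.29 to 2.55 for the second. At 7 against 4 dpi the log2FC was -0.14 ± 0.20 (FDR 0.641, 95% interval -0.57 to 0.29), and at 7 against 1 dpi it was 0.36 ± 0.20 (FDR 0.156).

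Fcgr2b encodes CD32B, the inhibitory receptor of the family. Its libraries stood at 400, 274 and 263 CPM at 1 dpi, 135, 170 and 113 CPM at 2 dpi, 221, 416 and 292 CPM at 4 dpi, and 307, 319 and 249 CPM at 7 dpi. As for Fcgr4, the 2 dpi libraries were below all others and the remaining time points overlapped, with the widest spread at 4 dpi. Fcgr2b fell by 1.16 ± 0.25 on the log2 scale at 2 against 1 dpi (139 ± 28.5 CPM and 313 ± 76.2 CPM, SD, n = 3 each, FDR 0.00499) and rose by 1.15 ± 0.25 at 4 against 2 dpi (309 ± 98.6 CPM and 139 ± 28.5 CPM, FDR 0.0039). Each call lost the fold threshold without 1 library. The first log2FC was -0.94 (FDR 0.0338) without 1 dpi replicate 1, and the second 0.88 (FDR 0.0294) without 4 dpi replicate 2. At 7 against 4 dpi the log2FC was -0.09 ± 0.24 (95% interval -0.60 to 0.43), and at 7 against 1 dpi it was -0.10 ± 0.24 (-0.62 to 0.41).

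Fcer1g, the signalling chain that the activating receptors share, was a DEG in none of the 4 comparisons. Its libraries stood at 452, 379 and 355 CPM at 1 dpi, 338, 339 and 305 CPM at 2 dpi, 361, 383 and 373 CPM at 4 dpi, and 401, 184 and 251 CPM at 7 dpi. The 2 dpi libraries were just below those of 1 and 4 dpi, and the 7 dpi libraries spread from above the 4 dpi range to far below it. The log2FC was -0.27 ± 0.23 at 2 against 1 dpi (FDR 0.491), 0.19 ± 0.23 at 4 against 2 dpi (FDR 0.618), -0.42 ± 0.23 at 7 against 4 dpi (FDR 0.192) and -0.50 ± 0.23 at 7 against 1 dpi (FDR 0.0833). Without 7 dpi replicate 1 the last 2 values were -0.78 (FDR 0.0167) and -0.85 (FDR 0.00315), and without 7 dpi replicate 2, the library with the highest mitochondrial share, they were -0.18 (FDR 0.590) and -0.25 (FDR 0.330). The part of mitochondrial reads in the 7 dpi spread was not tested.

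Fcgrt had the widest spread of the 6 genes on the log2 scale between libraries of 1 time point, with an SD of 0.88 at 4 dpi and 0.86 at 1 dpi. Its libraries stood at 130, 70.3 and 39.3 CPM at 1 dpi, 66.6, 68.3 and 34.0 CPM at 2 dpi, 76.1, 256 and 142 CPM at 4 dpi, and 185, 170 and 116 CPM at 7 dpi. The 2 dpi libraries were below all of 4 and 7 dpi but overlapped with 1 dpi. Fcgrt rose by a log2FC of 1.49 ± 0.42 at 4 against 2 dpi (158 ± 91.1 CPM and 56.3 ± 19.3 CPM, SD, n = 3 each, FDR 0.0209). The call was lost without 4 dpi replicate 2 (log2FC 0.95, FDR 0.150) and without 2 dpi replicate 3 (log2FC 1.26, FDR 0.0910). At 7 against 1 dpi the log2FC was 0.98 ± 0.42 (FDR 0.0628, 95% interval 0.10 to 1.87). That value was a DEG in 4 of the 10 other ways of processing and also without 1 dpi replicate 1 (log2FC 1.58), 2 dpi replicate 3 (1.05) or 7 dpi replicate 3 (1.18).

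**Figure D2:**
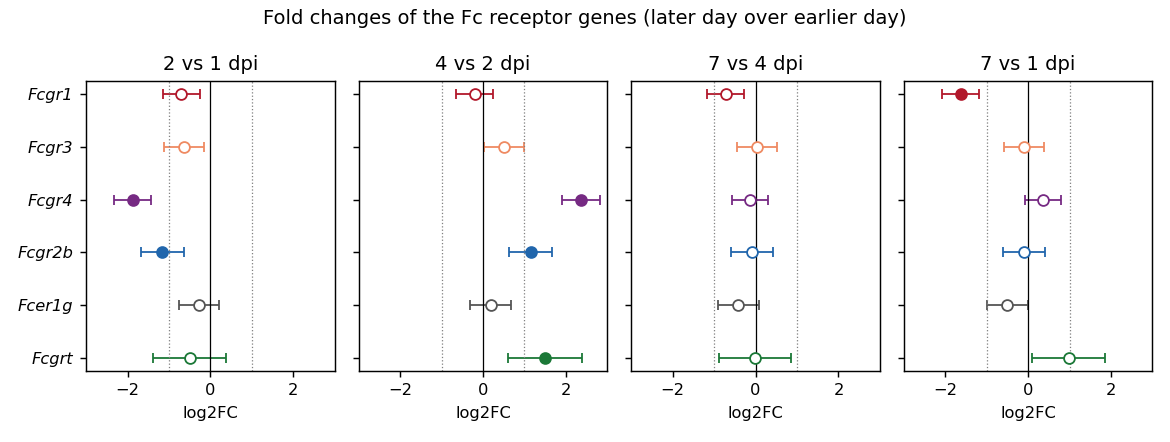
Log2 fold change (horizontal axes, later over earlier day) of each gene in the 4 comparisons, with 95% intervals of the edgeR fit; filled points are DEGs and dotted lines mark the fold threshold at -1 and 1. Fcgr4 and Fcgr2b have filled points on opposite sides in the first 2 comparisons, and Fcgr1 has its only filled point at 7 vs 1 dpi, at -1.63.

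The same contrast between days can be read without any test from how far the libraries overlapped. At 2 against 1 dpi, 5 of the 6 genes had all 3 libraries below all 3 of 1 dpi, all but Fcgrt, where 18.5% of all genes did so. At 4 against 2 dpi, 5 of the 6 had all libraries above those of 2 dpi, all but Fcgr1, where 22.3% of all genes did so. At 7 against 4 dpi and at 7 against 1 dpi, Fcgr1 alone was separated, lower at 7 dpi in both, where 20.7% and 25.9% of all genes were lower without overlap. TMM scaling bears on these directions. Without the TMM factors the median log2 difference of all genes was 0.55 at 2 against 1 dpi, 0.68 at 7 against 4 dpi and 1.27 at 7 against 1 dpi, and the called members kept their sign but not all their size. The log2 difference of Fcgr1 at 7 against 1 dpi was then -0.46 and that of Fcgr2b at 2 against 1 dpi -0.60, both short of the fold threshold. Those of Fcgr4 were -1.30 at 2 against 1 dpi and 2.26 at 4 against 2 dpi, where Fcgr2b had 1.00 and Fcgrt 1.27. Among differences that were not DEGs, Fcer1g (0.29) and Fcgrt (0.16) turned positive at 2 against 1 dpi, where Fcgr3 stood at -0.06 and Fcgr1 at -0.13. Fcgr1 (0.01), Fcgr2b (0.68), Fcgr4 (0.58) and Fcer1g (0.23) turned positive at 7 against 4 dpi, and so did Fcgr2b (1.08), Fcgr3 (1.08) and Fcer1g (0.59) at 7 against 1 dpi, where Fcgr4 stood at 1.54 and Fcgrt at 2.28. Relative to the median of all genes, the value of Fcgr1 at 7 against 1 dpi was -1.78 with the factors and -1.73 without them, and that of Fcgr2b at 2 against 1 dpi was -1.19 and -1.15.

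Levels of different genes were compared per kilobase of exon, using exon lengths of a GRCm38 annotation. Fcer1g was the most abundant transcript at every time point, with a mean of 452, 374, 426 and 319 CPM per kilobase at 1, 2, 4 and 7 dpi, and Fcgr3 followed at 277, 177, 252 and 258. The ranges of these neighbours did not overlap up to 4 dpi, and at 7 dpi they did (211 to 459 for Fcer1g and 236 to 302 for Fcgr3). Fcgr1 came next up to 4 dpi, at 167, 103 and 89.5 CPM per kilobase, though at 4 dpi its range overlapped those of Fcgrt and Fcgr2b. It took the fourth place at 7 dpi with 54.2. Fcgrt stood above it there, at 74.7, with ranges that overlapped (55.1 to 88.2 for Fcgrt and 45.6 to 63.4 for Fcgr1). Fcgr4 had the lowest mean at every time point, at 33.8, 9.20, 47.8 and 43.3 CPM per kilobase, but its libraries were below all those of the other 5 genes at 2 dpi alone. Its range overlapped that of Fcgrt at 1 and 4 dpi, that of Fcgr2b at 4 and 7 dpi and that of Fcgr1 at 7 dpi. Fcgr2b (54.0, 24.1, 53.4 and 50.3) and Fcgrt (37.9, 26.8, 75.2 and 74.7) overlapped with each other up to 4 dpi and were just apart at 7 dpi (55.1 to 88.2 for Fcgrt and 43.0 to 55.0 for Fcgr2b). Fcgr2b has the longest joined exons, 5790 bases. With the longest coding transcript of 3544 bases instead, an alternative chosen after seeing the data, Fcgr2b ranked above Fcgrt at 2 dpi and above Fcgr1 at 7 dpi, and the first 2 places and the last did not change.

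**Figure D3:**
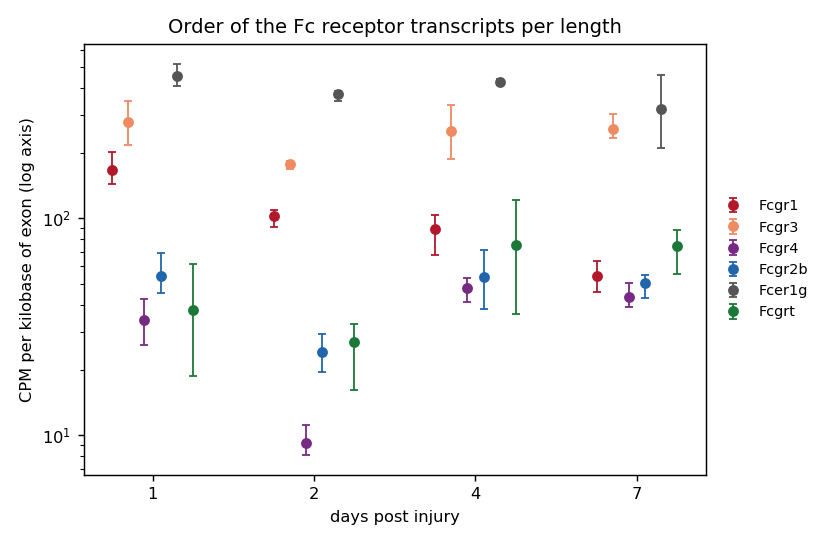
Mean CPM per kilobase of exon (vertical log axis) of the 6 genes by days post injury; bars run from the lowest to the highest of 3 libraries. Fcer1g and Fcgr3 have the highest means on every day and Fcgr4 the lowest, and Fcgr1 passes from 167 at 1 dpi into the range of Fcgr2b at 7 dpi.

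A ratio of 2 genes within a library does not depend on how libraries are scaled, so the balance of activating and inhibitory receptor transcripts was described in that way, on raw counts and without a test. For every Fcgr2b count there were 1.31, 1.36 and 1.53 Fcgr1 counts at 1 dpi, 2.08, 1.64 and 2.09 at 2 dpi, 1.22, 0.421 and 0.858 at 4 dpi, and 0.452, 0.371 and 0.658 at 7 dpi. The ratio was thus lower in all 3 libraries of 7 dpi than in all 6 libraries of 1 and 2 dpi. The side of 1 on which it falls depends on gene length. At 7 dpi, Fcgr1 and Fcgr2b averaged 54.2 and 50.3 CPM per kilobase of joined exons, and 54.2 and 82.2 with the longest coding transcript. For Fcgr3 the ratio was 1.44 to 1.68 at 1 dpi, 1.84 to 2.58 at 2 dpi, 1.39 to 1.47 at 4 dpi and 1.28 to 1.71 at 7 dpi. It was thus highest at 2 dpi and otherwise within a narrow range. For Fcgr4 the ratio was 0.125 to 0.151 at 1 dpi, 0.0598 to 0.103 at 2 dpi, 0.160 to 0.233 at 4 dpi and 0.154 to 0.207 at 7 dpi, so that Fcgr4 had its smallest share at 2 dpi, when Fcgr1 and Fcgr3 had their largest. Between the 2 activating receptors at the ends of the course, Fcgr4 counts per Fcgr1 count were 0.0819 to 0.111 at 1 dpi, 0.0365 to 0.0496 at 2 dpi, 0.191 to 0.381 at 4 dpi and 0.311 to 0.457 at 7 dpi. Ratios of counts between genes also carry their lengths, so only their change over days is of use here.

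**Figure D4:**
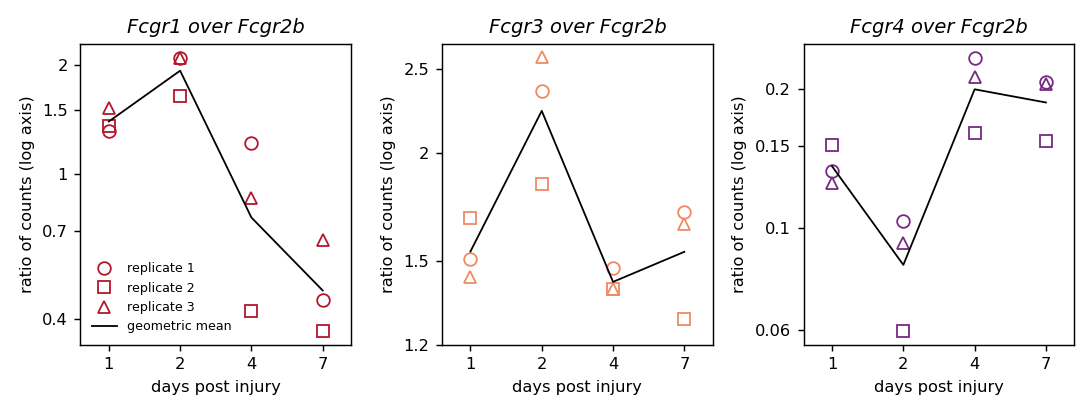
Ratio of raw counts of Fcgr1, Fcgr3 and Fcgr4 to those of Fcgr2b in each library (vertical log axes) by days post injury; symbols are libraries and the line is the geometric mean. The Fcgr1 ratio is 1.31 to 1.53 at 1 dpi and 0.371 to 0.658 at 7 dpi, and the Fcgr4 ratio has its lowest value, 0.0598, at 2 dpi. Ratios also carry gene lengths, so their change over days is what can be read.

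Within 4 dpi, replicates 1 and 2 lay at opposite ends. Replicate 2 was the highest of the 3 for Fcgr2b, Fcgr3, Fcgr4, Fcgrt and Fcer1g and the lowest for Fcgr1, and replicate 1 was the lowest for the first 5 and the highest for Fcgr1. As a description over the 12 libraries, which share the time points, log2 CPM of Fcgr2b had a Pearson r of 0.90 with Fcgr3, 0.88 with Fcgr4 and 0.76 with Fcgrt, and that of Fcgr1 had 0.62 with Fcer1g, -0.53 with Fcgrt and -0.08 with Fcgr2b. Out of 4767 genes whose log2 CPM averaged 4 or more, those most like Fcgr1 in these libraries were Csnk1a1 (r 0.97), Bhlhe40 (0.97) and Slc39a1 (0.97). Fcgr2b was most like Dhx40 (0.96), Csf3r (0.95) and Gmip (0.94), and Fcgr4 was most like Lst1 (0.95), Ifi209 (0.95) and Otud5 (0.93). For Fcgr3 they were Ifnar2, Klf3 and Psenen (0.90 to 0.87), for Fcer1g Dnajc5, Ubtd1 and Gng5 (0.95 to 0.92), and for Fcgrt Cirbp, Mier1 and Tcp11l2 (0.92 to 0.91).

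The chain encoded by Fcer1g also serves C-type lectins and other receptors that bind no antibody. Of 5 such genes, 4 were tested. All 4 were lower DEGs at 2 against 1 dpi, where 3.97% of all genes were (median log2FC -1.48, all genes 0.01). Clec4n, which encodes the fungal receptor dectin-2, fell by 2.04 ± 0.28 on the log2 scale (FDR 2.06e-04), and Clec4e, which encodes Mincle, fell by 1.72 ± 0.30 (FDR 0.00138). Pira2 fell by 1.24 ± 0.33 (FDR 0.0202) and Clec4d by 1.04 ± 0.31 (FDR 0.0341). At 4 against 2 dpi, when Fcgr4 and Fcgr2b were higher, Clec4e and Clec4d were lower DEGs again (log2FC -2.29 and -1.51, FDR 1.11e-04 and 0.0029), where 3.88% of all genes were. None of the 4 was a DEG at 7 against 4 dpi, where 7.44% of all genes were higher and 5.2% lower DEGs. Clec4e averaged 265, 80.5, 16.4 and 12.9 CPM at 1, 2, 4 and 7 dpi. The count of 4 at 2 against 1 dpi was 2 without 1 dpi replicate 1 or without any 1 of the 2 dpi libraries. The related adaptors Tyrobp (DAP12) and Hcst (DAP10) were DEGs in none of the 4 comparisons, and Tyrobp averaged 210, 134, 209 and 185 CPM.

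Fcgr2b was compared with a list of 9 other myeloid receptors grouped as inhibitory. Whether each mouse protein, Cd33 among them, carries an ITIM was not checked here. At 2 against 1 dpi, 3.97% of all genes were lower DEGs. Of the 9 receptors, 6 were lower DEGs and none was higher (median log2FC -1.26). They were Pirb (log2FC -1.26 ± 0.19, FDR 3.4e-04), which binds MHC class I, Pilra (-1.26 ± 0.22, FDR 0.00135), Siglece (-1.95 ± 0.41, FDR 0.0045) and Cd33 (-1.63 ± 0.47, FDR 0.0295), both sialic acid receptors, Clec4a2 (-1.01 ± 0.25, FDR 0.0139), a C-type lectin, and Lilrb4a (-1.46 ± 0.42, FDR 0.0303). At 4 against 2 dpi, Cd33 (log2FC 3.73 ± 0.49, FDR 8.32e-05) and Cd300a (1.97 ± 0.27, FDR 1.11e-04) were higher and Pilra (-1.18 ± 0.22, FDR 0.00151) lower. At 7 against 4 dpi, Siglece (1.89 ± 0.40, FDR 0.00376) and Lilrb4a (1.48 ± 0.42, FDR 0.0183) were higher. Of all genes, 8.02% were higher and 3.88% lower DEGs at 4 against 2 dpi, and 7.44% were higher at 7 against 4 dpi. Sirpa, the receptor for CD47, and the collagen receptor Lair1 were DEGs in none of these 3 comparisons and averaged 303, 358, 609 and 582 CPM and 74.6, 79.8, 152 and 151 CPM. Both were higher on the FDR alone at 4 against 2 dpi, Sirpa by 0.77 ± 0.19 (FDR 0.00993) and Lair1 by 0.93 ± 0.18 (FDR 0.00188) on the log2 scale. The count of 6 at 2 against 1 dpi was 3 without 2 dpi replicate 3, and 4 to 6 without any other single library.

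Of 21 genes of ITAM signalling, all were tested. Of all genes, 5.09% were higher and 3.97% lower DEGs at 2 against 1 dpi. These shares were 8.02% and 3.88% at 4 against 2 dpi, and 7.44% and 5.2% at 7 against 4 dpi. At 2 against 1 dpi, Blnk, an adaptor of Syk, was higher (log2FC 2.24 ± 0.24, FDR 2.9e-05), and Fgr, a Src family kinase (-1.32 ± 0.22, FDR 8.95e-04), and Malt1 (-1.35 ± 0.25, FDR 0.00185) were lower. At 4 against 2 dpi, Blnk was higher again (1.04 ± 0.22, FDR 0.00374) and Vav3, a guanine nucleotide exchange factor, lower (-1.17 ± 0.25, FDR 0.00373), and at 7 against 4 dpi Vav3 alone was a DEG, higher by 1.86 ± 0.25 (FDR 3.82e-04). Syk averaged 99.1, 61.9, 99.4 and 146 CPM and Lyn 299, 195, 303 and 258 CPM at 1, 2, 4 and 7 dpi, and neither was a DEG in any of the 4 comparisons. On the FDR alone, Syk passed in all 4, with a log2FC of -0.68 ± 0.20 at 2 against 1 dpi (FDR 0.0334) and 0.68 ± 0.20 at 4 against 2 dpi (FDR 0.0237). Lyn passed it at 2 against 1 dpi (-0.62 ± 0.19, FDR 0.0371) and at 4 against 2 dpi (0.64 ± 0.19, FDR 0.0237). The list median was -0.40 at 2 against 1 dpi, 0.15 at 4 against 2 dpi and -0.02 at 7 against 4 dpi.

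Of 11 genes of inhibitory signalling, none was a DEG at 2 against 1 dpi, when Fcgr2b was lower. With 3.97% of all genes lower and 5.09% higher DEGs there, few calls would be looked for in a list of 11. Dok2 (log2FC -1.89 ± 0.35, FDR 0.00134) and Ubash3b (-1.51 ± 0.21, FDR 1.51e-04), which restrain kinase signalling, were lower at 4 against 2 dpi, when Fcgr2b was higher, and none was a DEG at 7 against 4 dpi. The shares of all genes were 8.02% higher and 3.88% lower at 4 against 2 dpi, and 7.44% and 5.2% at 7 against 4 dpi. Inpp5d, which encodes the phosphatase SHIP1 that Fcgr2b recruits, averaged 312, 309, 313 and 218 CPM, and Ptpn6, which encodes SHP-1, 124, 144, 178 and 195 CPM. Neither was a DEG in any of the 4 comparisons. On the FDR alone, Inpp5d was lower at 7 against 4 dpi (log2FC -0.52 ± 0.18, FDR 0.0474) and at 7 against 1 dpi (-0.52 ± 0.18, FDR 0.0285). Ptpn6 was higher on the FDR alone at 7 against 1 dpi (0.66 ± 0.19, FDR 0.00852).

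Among effectors of uptake, 27 genes of the phagocytic cup held 1 higher DEG at 2 against 1 dpi (Myo1e, log2FC 1.01 ± 0.25, FDR 0.0130), 1 higher at 4 against 2 dpi (Marcks, 1.13 ± 0.24, FDR 0.00373) and 1 higher and 2 lower at 7 against 4 dpi (Arf6 at 1.69 ± 0.26 with FDR 7.04e-04, Cfl1 at -1.25 ± 0.21 with FDR 0.00125, and Gsn just past the fold threshold with FDR 0.0127). Of all genes, 5.09% were higher and 3.97% lower DEGs at 2 against 1 dpi. These shares were 8.02% and 3.88% at 4 against 2 dpi, and 7.44% and 5.2% at 7 against 4 dpi. At 7 against 1 dpi, when Fcgr1 was lower, 9 of the 27 were lower DEGs and 2 higher, where 14% of all genes were lower and 19.7% higher. The list median was -0.54 and that of all genes 0.16. The 9 included the actin nucleating subunits Arpc5 (-1.53 ± 0.21, FDR 2.02e-05), Actr2 (-1.39 ± 0.21, FDR 4.94e-05) and Arpc2 (-1.35 ± 0.23, FDR 1.46e-04). Of 5 subunits of the phagocyte oxidase, Ncf4 was lower at 2 against 1 dpi (-1.09 ± 0.18, FDR 9.79e-04) and Cybb, the catalytic subunit, higher at 4 against 2 dpi (2.46 ± 0.32, FDR 7.83e-05), with 848 CPM at 4 dpi and 154 CPM at 2 dpi. Cyba and Ncf1 were DEGs in none of the 4 comparisons.

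Fcgrt works as a pair with beta-2 microglobulin, encoded by B2m. B2m averaged 492, 417, 1003 and 895 CPM at 1, 2, 4 and 7 dpi and was a higher DEG at 4 against 2 dpi (log2FC 1.27 ± 0.22, FDR 9.86e-04), the comparison in which Fcgrt was higher. At 7 against 4 dpi it stood at -0.16 ± 0.22 (FDR 0.607). Of the genes of endosomal recycling, Rab11a (-1.14 ± 0.18, FDR 1.01e-04) and Snx4 (-1.20 ± 0.17, FDR 3.97e-05) were lower DEGs at 7 against 1 dpi. Rab4a was tested on 163 counts in all with a log2FC of 2.79 ± 1.10 at 4 against 2 dpi (FDR 0.0855), and Myo5b, with 38 counts, was not tested.

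**Figure D5:**
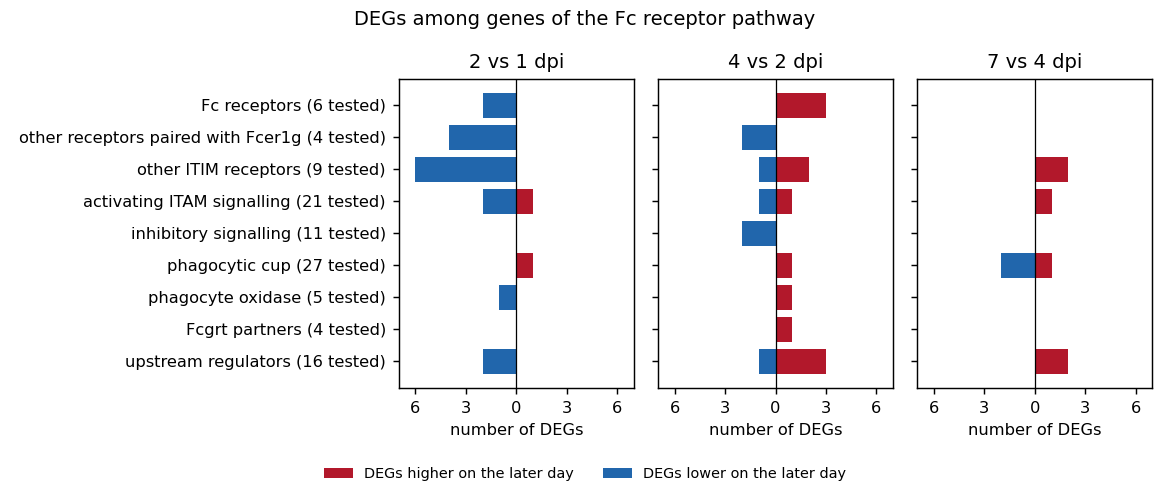
Number of DEGs (horizontal axes, higher to the right and lower to the left of 0) in lists of genes that work with the Fc receptors, for 3 successive comparisons; the number tested stands beside each list. The longest bars are 6 lower genes of the list labelled other ITIM receptors and 4 lower Fcer1g partners at 2 vs 1 dpi, where 3.97% of all genes were lower DEGs.

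Of 16 genes that act upstream of Fc receptor expression (cytokine receptors and their signalling proteins, IRF and myeloid factors), 2 were lower at 2 against 1 dpi, Il4ra (log2FC -1.24 ± 0.25, FDR 0.00374) and Il10ra (-1.31 ± 0.28, FDR 0.00495). None was a higher DEG there, where 3.97% of all genes were lower and 5.09% higher DEGs. At 4 against 2 dpi, 8.02% of all genes were higher and 3.88% lower DEGs. Of the 16, 3 were higher, among them Il10ra (1.81 ± 0.28, FDR 3.53e-04) and Irf8 (1.29 ± 0.24, FDR 0.00123). C5ar1, the receptor for the complement fragment C5a, was lower in the same comparison (-1.87 ± 0.38, FDR 0.00274). At 7 against 4 dpi, Cebpa (1.73 ± 0.35, FDR 0.00304) and Jak2 (1.31 ± 0.24, FDR 0.00185) were higher, where 7.44% of all genes were higher DEGs. Spi1, which encodes PU.1, averaged 201, 202, 228 and 232 CPM and was a DEG in none of the 4 comparisons. Ifngr1, a chain of the interferon gamma receptor, was not a DEG either but passed the FDR alone in 2 of them. Its log2FC was 0.996 ± 0.209 at 4 against 2 dpi (FDR 0.0033), just short of the fold threshold, and 0.76 ± 0.21 at 7 against 1 dpi (FDR 0.00649).

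Other genes of antibody receptors and of Fc receptor-like proteins were mostly silent. Fcer1a and Ms4a2, which complete the mast cell IgE receptor around the Fcer1g chain, had 0 counts in all 12 libraries, as had Pigr and Fcamr. A count of 0 allows up to 3 counts by counting error alone. Of 13 such genes 4 were tested. Fcrls, which encodes an Fc receptor-like protein, was a higher DEG at 2 against 1 dpi (192 CPM at 2 dpi and 34.2 CPM at 1 dpi, log2FC 2.49 ± 0.24, FDR 1.85e-05), opposite in direction to Fcgr4 and Fcgr2b. Fcrlb was lower (-2.05 ± 0.42, FDR 0.00428), and Trim21, a cytosolic receptor for IgG, was higher at 4 against 2 dpi (1.70 ± 0.31, FDR 0.0013). Fcrl1 was tested and was a DEG in none of the 4 comparisons.

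Of 13 genes for antibody chains and pentraxins, the ligands of these receptors, Ighm and Ptx3 alone were tested. Of the IgG heavy chain genes, Ighg1 had 2 counts over all libraries and Ighg2b, Ighg2c and Ighg3 had 0. Ighm, which encodes the heavy chain of IgM, averaged 9.66, 14.7, 132 and 140 CPM at 1, 2, 4 and 7 dpi and was a higher DEG at 4 against 2 dpi (log2FC 3.17 ± 0.41, FDR 8.07e-05), while the light chain gene Igkc had 47 counts in all and the joining chain Jchain 14. Of 6 B cell markers, 2 were tested, Cd79b and Ms4a1, and the list summed to 1.02 to 9.74 CPM in any library.

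Other cells that carry Fc receptors were looked for by marker lists. Of 10 neutrophil markers, 5 were tested, and their summed level was 128 to 299 CPM at 1 dpi, 60.0 to 99.5 CPM at 2 dpi, 72.4 to 146 CPM at 4 dpi and 43.0 to 157 CPM at 7 dpi. Most of it came from Mmp9 and Csf3r. The granule genes Camp, Ngp and Ltf had 0, 4 and 27 counts in all, and Ly6g had 6, while S100a8 averaged 22.0 CPM at 1 dpi and 3.73 CPM at 2 dpi. At 2 against 1 dpi, when Fcgr4 and Fcgr2b were lower, 4 of the 5 were lower DEGs, where 3.97% of all genes were. The part of neutrophil RNA in the lower levels of Fcgr4 and Fcgr2b was not tested. At 4 against 2 dpi, when both were higher, Csf3r was a higher DEG (log2FC 1.18 ± 0.21, FDR 8.79e-04) and S100a8, S100a9 and Cxcr2 were lower ones. Of 5 platelet markers only Ppbp was tested, at a mean of 1149 CPM at 1 dpi and 56.9 CPM at 2 dpi, while Itga2b, Gp9, Treml1 and Gp1bb had 22, 35, 10 and 0 counts in all. NK cell (1 of 6 tested), T cell (0 of 6) and mast cell and basophil markers (2 of 7) summed to at most 1.86, 0.972 and 7.01 CPM in any library. Dendritic cell markers, all 7 tested, summed to 4.66 to 14.5, 2.85 to 4.68, 7.55 to 9.39 and 9.66 to 30.4 CPM at 1, 2, 4 and 7 dpi, lowest at 2 dpi as Fcgr4 and Fcgr2b were, and their part in that pattern was not tested. Fibroblast markers, all 6 tested, summed to 12.8 to 42.9, 21.2 to 32.0, 97.4 to 185 and 312 to 624 CPM at 1, 2, 4 and 7 dpi, muscle fibre markers, all 6 tested, to 5.02 to 14.3 CPM up to 4 dpi and 36.3 to 96.2 CPM at 7 dpi, and endothelial markers, all 6 tested, to 14.9 to 36.4 CPM up to 4 dpi and 30.2 to 65.7 CPM at 7 dpi. The last 3 sums reached their highest values at 7 dpi, where Fcgr1 was lowest, and their part in that result was not tested.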

How the data were processed

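RNA-seq of 12 macrophage libraries was analysed. Per the submitters' notes, the authors used Trim Galore 0.6.6, HISAT2 2.2.1 with GRCm39, and Subread 2.0.1, and deposited raw counts of all libraries in 1 table. No multi-mapping rule is given in the sources used here. Of counts of 1 to 20, a median of 83.1% per library were even, so mates may have been counted one by one. Symbols (52081 IDs) and exon lengths came from a GRCm38 annotation, so no gene coordinates of GRCm39 are given.

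Time points were compared with edgeR 4.0.16 under R 4.3.3 (filterByExpr, TMM, quasi-likelihood F test, 1 coefficient per time point over 12 libraries), and with limma 3.58.1 and DESeq2 1.42.0 as alternatives. Log2 CPM used a prior count of 2. The method was also run on data simulated from the count model it assumes. Such a run cannot test that model or the scaling of the real libraries. Named genes were the 6 receptors, up to 4 DEGs of smallest P per list and successive comparison, all tested genes of lists of at most 6, and the 3 genes of highest Pearson r per member. Some listed genes are not reported here. Other genes given were chosen after their values were seen. Members, lists and tests were chosen with earlier results of these data known. Alternatives were other filters, scalings, tests and lengths, a fit of the 6 libraries compared, a replicate block, omission of the dominant or mitochondrial genes, and each library left out.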

Additional observations from a re-analysis of the deposited data

How the results depend on the processing

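Of 528 member log2FC values from tests under alternatives, 517 kept their call, 4 were no longer called, 7 were newly called and 0 reversed a call. The 517 include changes of sign among values that were not DEGs. Fcgrt at 2 vs 1 dpi, for example, went from -0.50 to 0.05 without 1 dpi replicate 1. Fcgr4 was a DEG at 2 vs 1 and at 4 vs 2 dpi, and Fcgr1 at 7 vs 1 dpi, under every alternative that gave a test. Without TMM factors, for which no test was run, the difference of Fcgr1 at 7 vs 1 dpi was -0.46, under the fold threshold. With each library left out in turn, the number of member DEGs was 1 to 2 at 2 vs 1 dpi, 1 to 3 at 4 vs 2 dpi, 0 to 0 at 7 vs 4 dpi and 1 to 2 at 7 vs 1 dpi. The log2FC ranged from -1.32 to -0.94 for Fcgr2b at 2 vs 1 dpi, 0.88 to 1.34 for Fcgr2b at 4 vs 2 dpi, 0.95 to 1.82 for Fcgrt at 4 vs 2 dpi and 0.72 to 1.58 for Fcgrt at 7 vs 1 dpi. Without 1 dpi replicate 1, 1 member was a DEG at 2 vs 1 dpi, and without 4 dpi replicate 2, 1 at 4 vs 2 dpi. Fcgrt at 7 vs 1 dpi became a DEG, for 2 member DEGs in place of 1, with limma-voom (1.13), without the dominant gene (1.08) and without mitochondrial genes (1.05). Its FDR over the alternatives other than left-out libraries was 7.75e-05 to 0.0933. With the FDR alone, Fcgr1 made 1 member at 7 vs 4 dpi. The cause of these changes was not tested.

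Whether libraries of the same replicate number are paired across time points could not be told from these data. The deviations of same-numbered libraries correlated at r of -0.13 to 0.13, and only 1 of 18 pairs exceeded 0.1. Their median r was 0.025, against 0.00069 for other numbers. In 20 of 36 cases a library correlated best with its own number among the 3 of another time point, more often than the 1 in 3 of unrelated numbers. These cases share libraries and are not independent. With the replicate block the numbers of member DEGs were 2, 3, 0 and 2 in the 4 comparisons, the last by Fcgrt (1.04, FDR 0.025), and the block changed no other member call.

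With Spearman in place of Pearson, 1 of the 3 genes most like Fcgr1 and 1 of those most like Fcgr3 stayed among the first 3, and 0 of those of Fcgr2b, Fcgr4 and Fcer1g. All values rest on 3 libraries a time point, and Fcgr4 at 2 dpi rests on 204 to 372 counts a library.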
